A study of Mus musculus with 18 samples.

Results

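The membrane progesterone receptors are proteins outside the nuclear receptor family that bind progesterone at membranes. The 7 mouse genes described here, Pgrmc1, Pgrmc2, Paqr5, Paqr6, Paqr7, Paqr8 and Paqr9, were chosen by name, out of 24959 genes in the tables. Their values did not enter the choice, but earlier results of these data were known when it was made. RNA was sequenced from peri-ovulatory granulosa cells of 3 mouse strains, with 3 KO and 3 WT libraries in each strain and cells of 3 mice pooled in each library. PRKO mice (Pgr tm1Bwo) lack both isoforms of the progesterone receptor PGR, PRAKO mice (Pgr tm1Omc) lack only PGR-A, and PRBKO mice (Pgr tm2Omc) lack only PGR-B. These are germline null alleles, so every cell of a KO mouse carried the allele. All mice were 21 to 27 days old, received 5 IU of eCG and, 46 h later, 5 IU of hCG, and were killed 8 h after the hCG. Values are TPM, an abundance that divides reads by transcript length and scales each library to the same total, summed over the transcripts of a gene.

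Progesterone acts in the ovary through the transcription factor PGR, which granulosa cells make after the ovulatory surge, and also through receptors at membranes. PGRMC1 and PGRMC2 are small haem-binding proteins of the membrane-associated progesterone receptor (MAPR) family that also serve cytochrome P450 enzymes and sterol handling, and PGRMC1 is known for an anti-apoptotic action of progesterone in granulosa cells. The PAQR genes encode proteins with a membrane-spanning core: PAQR7 is mPR alpha, PAQR8 is mPR beta, PAQR5 is mPR gamma, PAQR6 is mPR delta and PAQR9 is mPR epsilon, and they are known to act through G proteins.

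The RNA of the libraries differed in make-up between groups. Protein-coding genes took 37.4 to 39.1% of the TPM in KO and 39.3 to 44.5% in WT libraries of the PRKO strain, 44.7 to 47.8% in KO and 37.7 to 40.7% in WT libraries of the PRAKO strain, and 50.9 to 61.2% in KO and 42.7 to 47.4% in WT libraries of the PRBKO strain. The structural RNA Rn7s2 alone held 24.1 to 47.8% of a library. The median log2 fold change over all genes tested, KO minus WT, was -0.10 for PRKO and 0.22 for both PRAKO and PRBKO, so that changes are also given below relative to it or after rescaling each library to its protein-coding TPM. The study's methods state the sequencing depth, but TPM does not keep the number of reads behind a value, so values carry no counting interval. The 8 granulosa cell markers summed to between 2005 and 3550 TPM in every library, and the 8 oocyte markers to between 152 and 335 TPM, so markers of other cell types were detected in all libraries.

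The targeted gene was examined first. Pgr had 1.93, 1.49 and 2.67 TPM in KO and 2.01, 2.09 and 1.73 TPM in WT libraries of the PRKO strain, which overlapped. In the PRAKO strain it had 8.36, 11.2 and 12.4 TPM in KO against 0.90, 0.83 and 1.10 TPM in WT libraries (a log2 fold change of 2.94 with an SE of 0.16 and a limma adjusted p of 2.2e-05). In the PRBKO strain it had 2.62, 4.88 and 3.10 TPM in KO and 1.49, 6.24 and 1.41 TPM in WT libraries, and the groups overlapped. The Pgr mRNA level therefore does not separate KO from WT in the PRKO and PRBKO strains, and the genotypes here rest on the labels. The study's methods state that mice were genotyped from ear biopsies and again from tail biopsies.

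Pgrmc1 was the most abundant of the 7 genes in all 6 groups, with 87.7 to 147 TPM over the 18 libraries, above 96.6 to 97.2% of protein-coding genes by group mean. Pgrmc2 came next at 22.2 to 34.0 TPM, and Paqr7 was the most abundant Paqr gene at 7.55 to 16.6 TPM. None of these 3 genes overlapped its neighbour in the order within any group. Paqr6 and Paqr8 followed with group means of 1.70 to 3.57 and 1.54 to 3.98 TPM, and their order changed between groups: they overlapped in 5 of the 6 groups and Paqr8 lay above Paqr6 in WT libraries of the PRAKO strain. Paqr9 averaged 1.12 to 2.15 TPM and overlapped the gene above it in KO libraries of the PRKO and PRBKO strains. Paqr5 was lowest, at 0.32 to 0.90 TPM in the 18 libraries, and did not reach the 1 TPM asked for in at least 3 of the 6 libraries of a strain, so 6 of the 7 genes were tested. Levels compared between strains come from separate tables.

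**Figure D1:**
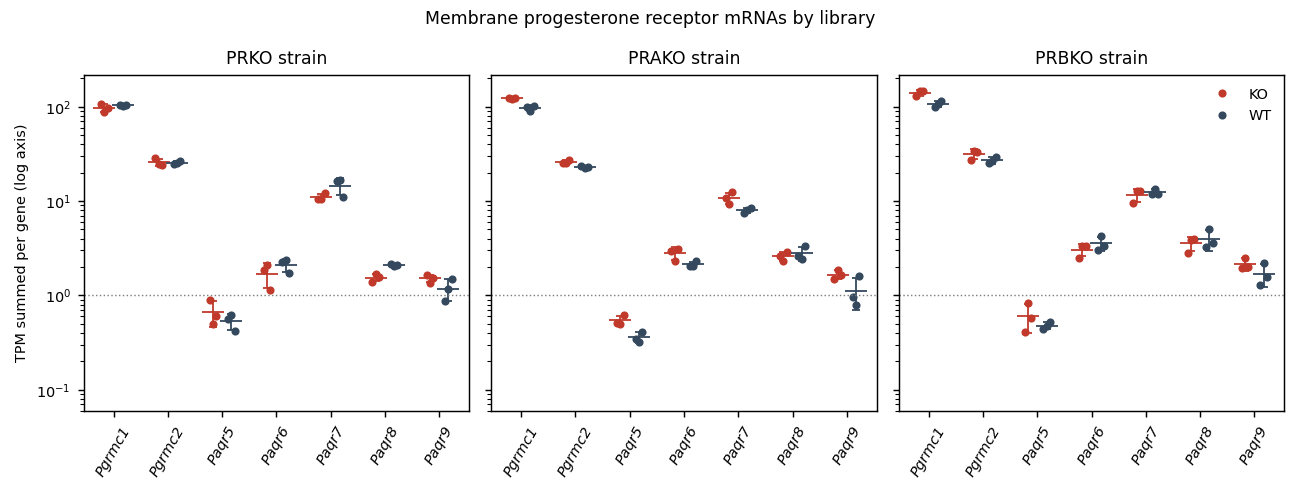
TPM summed per gene on a log axis for the 7 genes in the 3 strains, with 1 point per library, KO (red) left of WT (dark), and bars for mean ± SD (n = 3 libraries each); the dotted line is 1 TPM. Pgrmc1 lies between 87.7 and 147 TPM in every library, and Paqr5 stays under 1 TPM.

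Pgrmc1 (RefSeq gene 53328) lies on chromosome X at 36598193 to 36606079, Pgrmc2 (70804) on chromosome 3 at 41066326 to 41083046, and Paqr8 (74229) on chromosome 1 at 20890548 to 20939650, in the GRCm38.p6 assembly. Paqr6 lies on chromosome 3, Paqr7 on chromosome 4, and Paqr5 and Paqr9 on chromosome 9, which also carries Pgr. The bases before their start sites are shown for the 2 most abundant members and for Paqr8, whose KO values lay below WT in all 3 strains after rescaling, in the direction of transcription, with a steroid receptor half-site (AGAACA on one strand, TGTTCT on the other) in capitals. These are RefSeq windows of GRCm38.p6, cut to the bases before the start site: chrX:36597943-36598192 (+ strand) for Pgrmc1, chr3:41083047-41083296 (- strand) for Pgrmc2 and chr1:20890298-20890547 (+ strand) for Paqr8.
Pgrmc1: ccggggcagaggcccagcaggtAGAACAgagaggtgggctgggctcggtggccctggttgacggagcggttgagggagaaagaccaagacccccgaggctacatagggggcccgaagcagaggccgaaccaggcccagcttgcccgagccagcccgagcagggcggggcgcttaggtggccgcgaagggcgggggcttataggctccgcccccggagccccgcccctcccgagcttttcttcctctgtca
Pgrmc2: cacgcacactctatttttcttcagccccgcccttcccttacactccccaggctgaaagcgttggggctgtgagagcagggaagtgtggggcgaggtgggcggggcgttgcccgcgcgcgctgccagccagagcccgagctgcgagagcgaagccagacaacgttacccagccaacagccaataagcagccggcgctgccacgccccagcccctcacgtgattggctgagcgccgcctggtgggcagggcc
Paqr8: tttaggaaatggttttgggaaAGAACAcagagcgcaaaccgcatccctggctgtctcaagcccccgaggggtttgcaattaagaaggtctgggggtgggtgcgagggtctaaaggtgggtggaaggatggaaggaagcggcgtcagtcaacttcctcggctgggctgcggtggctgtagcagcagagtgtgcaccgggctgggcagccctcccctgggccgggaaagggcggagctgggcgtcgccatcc

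The half-site is one that PGR and its relatives among the steroid receptors can bind. Over windows of 300 bases, 250 before and 50 after a start site, the letters AGAACA or TGTTCT stood in 19.0% of the 32851 RefSeq mouse windows. Of the 8 windows of the 6 members with one, 3 held them: the Pgrmc1 window, 228 bases before the start, and both Paqr8 windows, the first of them 229 bases before it. The windows of Pgrmc2, Paqr5, Paqr6 and Paqr7 held none. The Pgrmc1 and Pgrmc2 windows held 24 and 25 CG pairs, against a median of 7 over all windows. The half-site is a match of letters and no evidence of binding.

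The log2 fold changes of the 6 tested genes ran from -0.38 (Paqr7 in PRKO) to 0.44 (Paqr9 in PRAKO) over the 3 strains. No member passed an adjusted p of 0.01 and a 2-fold change in any strain by limma, where 2.14% of the genes tested did in PRKO (297 genes), 2.05% in PRAKO (285) and 0.133% in PRBKO (19). At an adjusted p of at most 0.05 with no limit on size, 0 of 6 members passed in PRKO against 9.96% of all genes, 2 of 6 in PRAKO against 34.5%, and 0 of 6 in PRBKO against 3.40%. An unadjusted p under 0.05 was reached by 1 member in PRKO, 3 in PRAKO and 1 in PRBKO, against 24.8%, 49.5% and 31.1% of all genes. The 95% intervals of the 18 member and strain pairs ran from -0.76 to 0.90 on the log2 scale of the fit. All 18 excluded a 2-fold change in either direction on that scale. The fit adds a constant to each TPM as deposited, which understates the changes of low genes. A 2-fold change of the TPM itself is therefore not excluded for every low member, for example Paqr9 in PRAKO, whose interval reached 0.90. The median log2 fold change of the tested members in PRKO was -0.18, with 0.33 in PRAKO and 0.07 in PRBKO, beside -0.10, 0.22 and 0.22 over all genes. In bulk RNA, fewer cells of a type and less RNA per cell cannot be told apart.

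**Figure D2:**
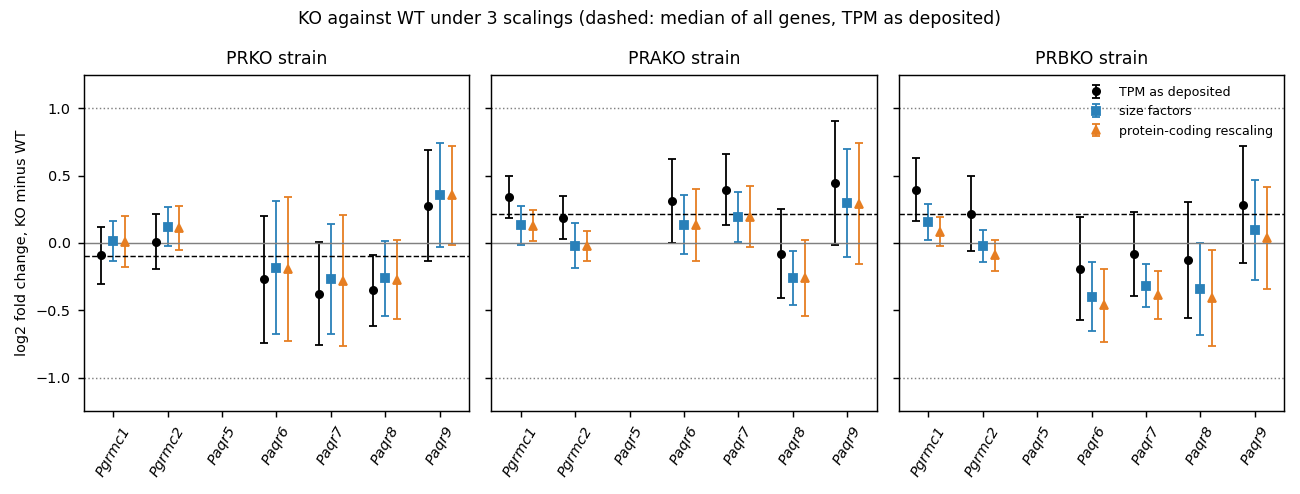
Log2 fold change of KO over WT for the 6 tested genes in the 3 strains, with bars for limma's 95% intervals (6 libraries a strain), from TPM as deposited and after 2 other scalings; dashed lines are the median of all genes and dotted lines a 2-fold change. On the log2 scale of the fit, which understates low genes, no interval from TPM as deposited reaches a 2-fold change. Pgrmc1 in PRAKO moves from 0.34 as deposited to 0.13 after size factors.

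Pgrmc1, the haem-binding protein tied to progesterone action in granulosa cells, was higher in PRAKO KO than in WT. It had 125, 121 and 123 TPM in KO against 99.0, 89.8 and 103 TPM in WT libraries of the PRAKO strain, with no overlap (a log2 difference of 0.34 ± 0.07 SE, with a limma adjusted p of 0.0105). In the PRBKO strain it had 129, 147 and 146 TPM in KO against 99.7, 106 and 114 TPM in WT libraries, again with no overlap (0.40 ± 0.10 SE, limma adjusted p = 0.0645). In the PRKO strain it had 107, 87.7 and 97.0 TPM in KO against 105, 101 and 104 TPM in WT libraries, and the groups overlapped (-0.09 ± 0.09 SE, limma adjusted p = 0.583). Groups that do not overlap were common: 31.9% of genes in PRKO, 51.3% in PRAKO and 34.7% in PRBKO. The PRAKO call was lost with size factors (0.13, limma adjusted p = 0.193) and with protein-coding rescaling (0.13, limma adjusted p = 0.132). On the rescaled values Pgrmc1 was 258 to 276 TPM in KO and 238 to 252 TPM in WT libraries of the PRAKO strain, which did not overlap. With quantile normalization it was kept (0.17, limma adjusted p = 0.0441). On TPM as deposited, the 6 endothelial markers of the PRAKO strain summed to 17.5 to 21.5 TPM in KO against 38.1 to 42.0 TPM in WT libraries. None was at 0 in a group. Of the 5 of them tested, Cdh5 was called lower (9.33 TPM on average in KO against 28.0 TPM in WT) and the other 4 were not called. The 8 granulosa markers, also as deposited, summed to 2645 to 2974 TPM in KO against 2005 to 2175 TPM in WT libraries. Of these, 5 were called higher and 2, Fshr and Fst, lower. The part of these markers in the Pgrmc1 difference was not tested. Without KO replicate 1 of the PRBKO strain, Pgrmc1 passed an adjusted p of 0.05 there (0.46, limma adjusted p = 0.0118). The share of all genes that passed in that run is not given here. Leaving out single libraries moved the calls over all genes widely, as the last section shows.

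Pgrmc2, the closest relative of Pgrmc1, did not pass the test in any strain with all libraries. It had 25.1, 25.5 and 27.6 TPM in KO against 23.5, 22.2 and 22.7 TPM in WT libraries of the PRAKO strain, with no overlap (0.19 ± 0.07 SE, limma adjusted p = 0.0671). It had 28.4, 24.5 and 24.4 TPM in KO and 24.6, 25.2 and 26.8 TPM in WT libraries of the PRKO strain, and 27.1, 34.0 and 33.5 TPM in KO and 25.05, 26.8 and 29.1 TPM in WT libraries of the PRBKO strain. Both of these pairs of groups overlapped. The PRAKO and PRBKO fold changes of Pgrmc2 turned negative after rescaling to protein-coding genes. Its PRBKO value passed at an adjusted p of 0.05 without KO replicate 1 (0.32, limma adjusted p = 0.0243). The share of all genes that passed in that run is not given here.

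Pgrmc1 made up 79.0, 78.1 and 79.9% of the summed TPM of Pgrmc1 and Pgrmc2 in KO and 81.0, 80.1 and 79.5% in WT libraries of the PRKO strain, a KO minus WT difference of -1.18 percentage points (exact two-sided permutation p = 0.2, n = 3 each). It made up 83.3, 82.5 and 81.7% in KO and 80.8, 80.2 and 81.9% in WT libraries of the PRAKO strain, a difference of 1.57 points (exact two-sided permutation p = 0.2, n = 3 each). In the PRBKO strain it made up 82.6, 81.2 and 81.4% in KO and 79.9, 79.8 and 79.7% in WT libraries, a difference of 1.90 points with no overlap (exact two-sided permutation p = 0.1, n = 3 each). With 3 libraries against 3, 0.1 is the smallest p this test can give, so none of the 3 could pass 0.05. A ratio of 2 genes in a library does not depend on how the library is scaled.

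Paqr7, which encodes mPR alpha, passed the looser test in the PRAKO strain. It had 10.7, 9.25 and 12.3 TPM in KO against 7.55, 8.01 and 8.51 TPM in WT libraries of the PRAKO strain, with no overlap (0.40 ± 0.11 SE, limma adjusted p = 0.0333). It had 10.4, 10.4 and 12.1 TPM in KO against 16.1, 16.6 and 11.0 TPM in WT libraries of the PRKO strain (-0.38 ± 0.16 SE, limma adjusted p = 0.207). In the PRKO strain 1 WT library, replicate 3, lay among the KO values, and without it the difference was -0.56 (limma adjusted p = 0.0244). That library is singled out for its Paqr7 value, and the share of all genes that passed without it is not given here. In the PRBKO strain Paqr7 had 9.62, 12.7 and 12.8 TPM in KO and 11.8, 13.4 and 11.9 TPM in WT libraries, which overlapped (-0.08 ± 0.14 SE). The PRAKO call was lost with size factors (0.19, limma adjusted p = 0.142), with protein-coding rescaling (0.19, limma adjusted p = 0.244) and without any 1 of KO replicate 2, KO replicate 4, WT replicate 1 or WT replicate 2 (0.30 to 0.40, limma adjusted p = 0.0863 to 0.114).

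Paqr8, which encodes mPR beta, was called in no strain by limma with a prior variance that follows expression, and lay lower in KO than in WT of every strain after rescaling. As deposited it had 1.40, 1.67 and 1.56 TPM in KO against 2.14, 2.05 and 2.12 TPM in WT libraries of the PRKO strain, with no overlap (-0.35 ± 0.11 SE, limma adjusted p = 0.108; 0.0438 with a prior variance that does not follow expression). It had 2.61, 2.29 and 2.89 TPM in KO and 2.60, 2.43 and 3.33 TPM in WT libraries of the PRAKO strain, and 2.84, 3.89 and 3.98 TPM in KO and 3.25, 5.11 and 3.59 TPM in WT libraries of the PRBKO strain. Both of these pairs of groups overlapped. After rescaling to protein-coding TPM, KO lay below WT without overlap in all 3 strains: 3.59 to 4.48 against 4.77 to 5.45 TPM in PRKO, 5.12 to 6.05 against 6.42 to 8.18 TPM in PRAKO and 5.58 to 6.77 against 7.57 to 10.9 TPM in PRBKO. This held for 1 of the 7 members, Paqr8, and for 2.56% of the 13439 genes tested in all 3 strains, and it was looked for after the values were seen. On that scale the log2 fold changes were -0.27 ± 0.12, -0.26 ± 0.12 and -0.41 ± 0.15 (SE; limma adjusted p = 0.267, 0.206 and 0.154), so Paqr8 passed in no strain. The 8 oocyte markers, as deposited, summed to 152 to 177 TPM in KO against 195 to 252 TPM in WT libraries of PRKO. Their sums were 213 to 261 against 223 to 335 TPM in PRAKO and 209 to 265 against 252 to 273 TPM in PRBKO. These sums were not rescaled, so they are not on the scale of the rescaled Paqr8 values. No oocyte marker was at 0 in all libraries of a group, and the part of these markers in the Paqr8 values was not tested.

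**Figure D3:**
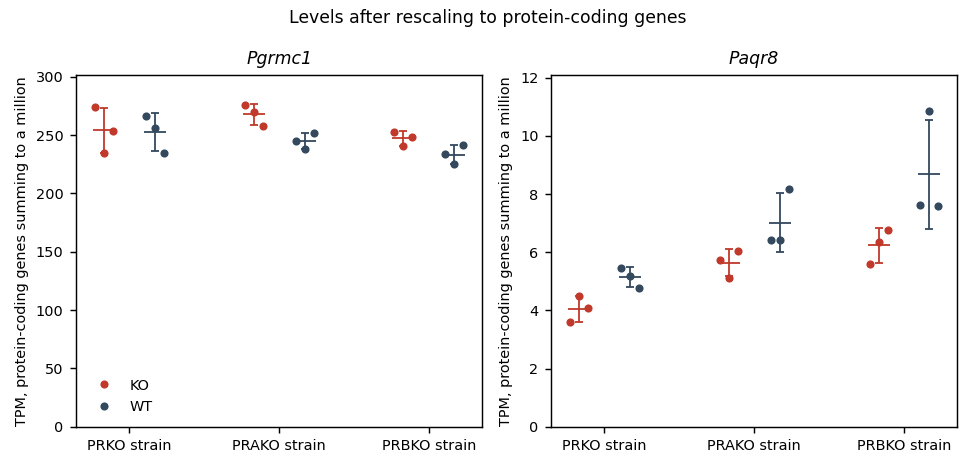
TPM of Pgrmc1 and Paqr8 after each library was rescaled so that its protein-coding genes sum to the same total, 1 point per library, KO (red) left of WT (dark) in each strain, with mean ± SD (n = 3 libraries each). Every KO library lies below every WT library of its strain for Paqr8, for example 3.59 to 4.48 against 4.77 to 5.45 TPM in PRKO.

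Paqr6, which encodes mPR delta, had 1.15 to 2.10 TPM in KO and 1.74 to 2.36 TPM in WT libraries of the PRKO strain, 2.30 to 3.12 TPM in KO and 2.04 to 2.31 TPM in WT libraries of the PRAKO strain, and 2.52 to 3.36 TPM in KO and 3.06 to 4.29 TPM in WT libraries of the PRBKO strain. The groups overlapped in all 3 strains. After rescaling, Paqr6, Paqr7 and Pgrmc2 lay lower in KO than in WT of the PRBKO strain without overlap, as 25.9% of all genes did there (14.4% in PRKO and 15.3% in PRAKO): Pgrmc2 at 53.3 to 56.86 against 56.88 to 61.4 TPM (limma adjusted p = 0.282), Paqr6 at 4.95 to 5.62 against 7.07 to 9.11 TPM and Paqr7 at 18.9 to 21.7 against 25.03 to 28.5 TPM (limma adjusted p = 0.0775 and 0.0549). Paqr9, which encodes mPR epsilon, had 1.37 to 1.64 TPM in KO and 0.86 to 1.50 TPM in WT libraries of the PRKO strain, 1.48 to 1.85 TPM in KO and 0.80 to 1.60 TPM in WT libraries of the PRAKO strain, and 1.94 to 2.52 TPM in KO and 1.29 to 2.22 TPM in WT libraries of the PRBKO strain. Its fold changes, 0.28, 0.44 and 0.29, were all positive and did not pass the test with all libraries. In PRAKO it passed without WT replicate 3 (0.65, limma adjusted p = 0.0142), a run whose share of all genes is not given here. After rescaling, Paqr9 lay higher in KO than in WT of the PRKO strain without overlap, at 3.66 to 4.19 against 2.20 to 3.37 TPM (limma adjusted p = 0.25), as 13.5% of all genes did there (18.6% in PRAKO and 7.36% in PRBKO). Paqr5, which encodes mPR gamma, had 0.50 to 0.62 TPM in KO and 0.32 to 0.41 TPM in WT libraries of the PRAKO strain and overlapped in the other 2 strains, all under the filter.

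The KO effects were also compared between strains, over all 18 libraries. The Pgrmc1 effect in PRKO was lower than in PRAKO by a difference of -0.43 ± 0.11 (SE; limma adjusted p = 0.0291) and lower than in PRBKO by -0.49 ± 0.11 (SE; limma adjusted p = 0.0067). The Paqr7 effect in PRKO was lower than in PRAKO by -0.77 ± 0.21 (SE; limma adjusted p = 0.0311). At this level 13.8% of genes differed between PRKO and PRAKO, 27.5% between PRKO and PRBKO and 6.03% between PRAKO and PRBKO, where no member did. The median difference over all genes was -0.30 between PRKO and PRAKO and -0.31 between PRKO and PRBKO, so that Pgrmc1 stood -0.13 and -0.18 from it. The Paqr7 difference between PRKO and PRAKO stood -0.47 from the median. Without any 1 of 8 libraries (PRKO KO replicates 2 and 3 and WT replicates 1 and 3, PRAKO KO replicates 2 and 4 and WT replicates 1 and 2) the PRKO minus PRAKO difference of Pgrmc1 missed the test (-0.36 to -0.45, limma adjusted p = 0.0534 to 0.0878). That of Paqr7 missed it without the same libraries, with PRKO WT replicate 2 in place of 3 (-0.67 to -0.84, limma adjusted p = 0.0516 to 0.0947). None of the 3 member differences passed after size factors, protein-coding rescaling or quantile normalization, where that of Paqr7 was -0.47, -0.47 and -0.46 (limma adjusted p = 0.262, 0.412 and 0.27) and that of Pgrmc1 between PRKO and PRAKO -0.11, -0.12 and -0.16 (limma adjusted p = 0.601, 0.677 and 0.331).

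Pgrmc1, Pgrmc2, Paqr5 and Paqr9 are represented by a single transcript in the tables, Paqr6 and Paqr8 by 2 and Paqr7 by 5. One of the Paqr7 transcripts, NM_001285847, took 12.1 to 18.3% of the Paqr7 TPM in the 6 libraries of the PRKO strain, KO and WT alike, against 2.08 to 5.78% in the PRAKO and 2.50 to 5.87% in the PRBKO libraries. In the same libraries NM_001285845 took 24.3 to 32.2% in the PRKO strain, 32.1 to 45.7% in the PRAKO strain and 40.1 to 52.6% in the PRBKO strain. Over the 3 KO libraries of the PRKO strain NM_001285847 held 16.0%, and over the 3 WT libraries 15.8%. Strain and table cannot be told apart here. Tested per transcript, the Pgrmc1 transcript passed an adjusted p of 0.05 in PRAKO (limma adjusted p = 0.0179), where 17.9% of transcripts did (5.95% in PRKO and 1.02% in PRBKO), and no other member transcript passed in any strain.

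**Figure D4:**
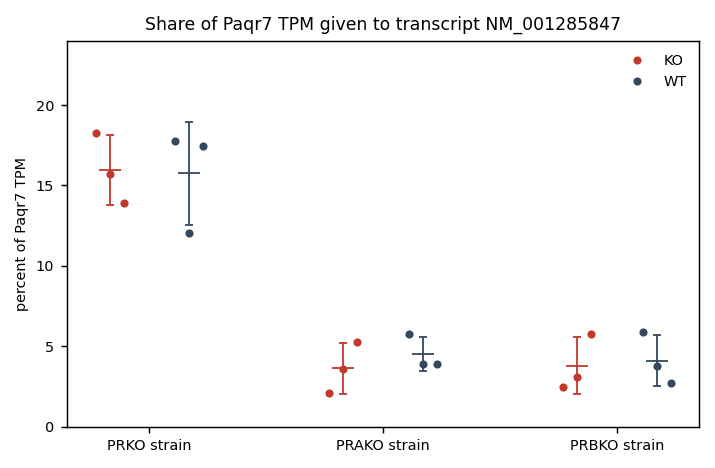
Percent of the Paqr7 TPM that the deposited tables give to transcript NM_001285847, 1 point per library, KO (red) left of WT (dark), with mean ± SD (n = 3 libraries each). All 6 libraries of the PRKO strain lie between 12.1 and 18.3%, and all 12 of the other strains between 2.08 and 5.87%.

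Among genes that act with or beside these receptors, Abhd2, Egfr, Cyp11a1 and the targeted gene Pgr passed the 2-fold rule in at least 1 strain. Of 33 such genes, in 6 lists (relatives of the PAQR and MAPR families, partners of PGRMC1 and PGRMC2, G proteins, other progesterone response, and progesterone synthesis and removal), 32 were tested. These lists were drawn up with earlier results of these data known. At an adjusted p of 0.05, 0 were higher and 3 lower in PRKO, 15 higher (Pgr among them) and 3 lower in PRAKO, and 4 higher and 0 lower in PRBKO. With size factors, protein-coding rescaling and quantile normalization, PRAKO had 6, 7 and 9 higher and 5 lower under each, with Gnai1 and Cyp17a1 now called lower. PRBKO then had 1 higher, Star, under each, and PRKO had 2, 1 and 2 higher and 3 lower under each. Over all genes, as deposited, 2.11% were higher and 7.85% lower in PRKO, 30.0% and 4.51% in PRAKO, and 3.19% and 0.209% in PRBKO. With the 3 scalings in the same order, 4.04, 3.35 and 4.85% were higher and 6.21, 5.66 and 6.13% lower in PRKO. In PRAKO 7.61, 6.64 and 9.55% were higher and 8.72, 7.54 and 8.61% lower. In PRBKO 0.796, 0.524 and 0.628% were higher and 0.614, 1.61 and 0.544% lower. After rescaling to protein-coding genes the PRAKO calls over all genes were 923 higher and 1048 lower, in place of 4169 and 627, and the PRBKO calls 75 and 230 in place of 457 and 30.

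Abhd2, a lipid hydrolase that serves as a membrane progesterone receptor in human sperm, fell in both strains that lack PGR-A. It had 63.7, 47.3 and 62.5 TPM in KO against 191, 188 and 198 TPM in WT libraries of the PRKO strain (-1.74 ± 0.12 SE, limma adjusted p = 0.000353). The 5 erythroid markers summed to 183 to 318 TPM in KO against 54.3 to 134 TPM in WT libraries of this strain. Their sums were 85.6 to 350 against 76.3 to 266 TPM in PRAKO and 222 to 358 against 74.8 to 205 TPM in PRBKO. None was at 0 in a group, and the part of these markers in the Abhd2 values was not tested. Abhd2 had 94.1, 96.1 and 103 TPM in KO against 201, 218 and 227 TPM in WT libraries of the PRAKO strain (-1.13 ± 0.07 SE, limma adjusted p = 4.5e-05). It had 227, 275 and 274 TPM in KO and 227, 242 and 230 TPM in WT libraries of the PRBKO strain, which overlapped. The KO effect of Abhd2 was lower in PRKO than in PRBKO by -1.88 ± 0.15 and lower in PRAKO than in PRBKO by -1.28 ± 0.15 (SE, limma adjusted p = 4.1e-07 and 3.4e-05). The medians of these differences over all genes were -0.31 and -0.003.

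Egfr, the epidermal growth factor receptor that PGRMC1 binds in human cells, had 13.9, 11.8 and 11.7 TPM in KO against 43.4, 45.3 and 43.7 TPM in WT libraries of the PRKO strain (-1.78 ± 0.08 SE, limma adjusted p = 7.9e-05) and 30.5, 25.4 and 29.6 TPM in KO against 51.1, 51.2 and 65.7 TPM in WT libraries of the PRAKO strain (-0.96 ± 0.12 SE, limma adjusted p = 0.00133). It had 82.8, 115 and 102 TPM in KO and 67.0, 69.8 and 73.0 TPM in WT libraries of the PRBKO strain, above WT without overlap but not past the test (0.50 ± 0.13 SE, limma adjusted p = 0.0615). Adipor2, an adiponectin receptor of the PAQR family, had 34.0, 31.2 and 32.1 TPM in KO against 48.7, 52.7 and 58.4 TPM in WT libraries of the PRKO strain (-0.70 ± 0.09 SE, limma adjusted p = 0.00332). It had 39.6, 41.9 and 43.4 TPM in KO against 51.6, 51.2 and 57.1 TPM in WT libraries of the PRAKO strain (-0.35 ± 0.07 SE, limma adjusted p = 0.0111). In the PRBKO strain Adipor2 had 68.3, 87.0 and 82.4 TPM in KO and 58.2, 63.0 and 65.8 TPM in WT libraries, above WT without overlap but not past the test (0.34 ± 0.12 SE, limma adjusted p = 0.104). As deposited, 34.7% of genes did not overlap in PRBKO, and the median log2 fold change over all genes was 0.22. After protein-coding rescaling Egfr was 0.19 and Adipor2 0.026 there (limma adjusted p = 0.125 and 0.716). Abhd2, Egfr and Adipor2 thus fell in PRKO and PRAKO, and the falls held under size factors, protein-coding rescaling and quantile normalization. Between PRKO and PRBKO the effects differed by -2.29 for Egfr and -1.04 for Adipor2 (limma adjusted p = 3.0e-07 and 3.9e-05). The median of this difference over all genes was -0.31.

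**Figure D5:**
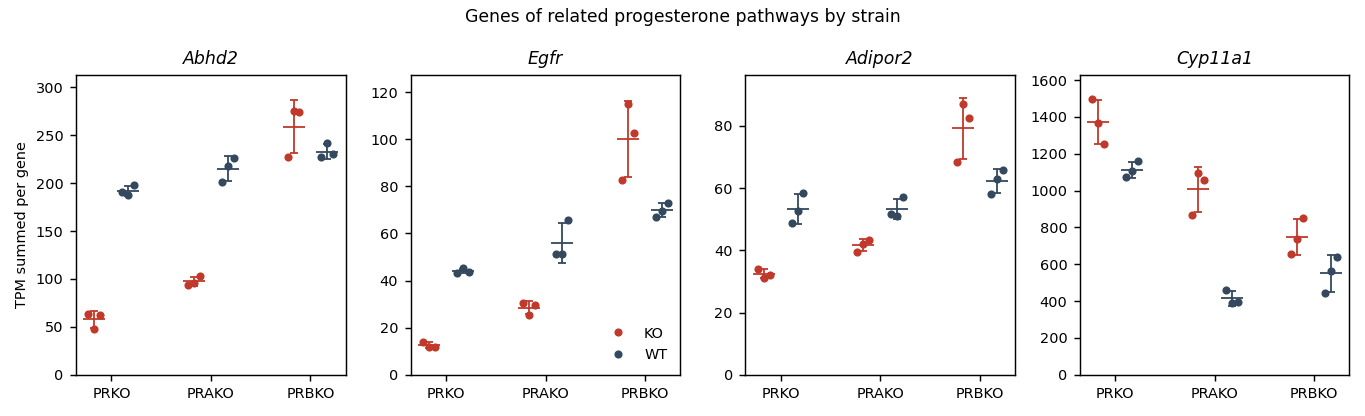
TPM of Abhd2, Egfr, Adipor2 and Cyp11a1 by strain, 1 point per library, KO (red) left of WT (dark), with mean ± SD (n = 3 libraries each); each panel has its own axis from 0. Abhd2 averages 57.8 TPM in KO against 192 TPM in WT libraries of the PRKO strain.

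Of the 8 tested genes of progesterone synthesis and removal, 5 were called higher and 0 lower in PRAKO, where 30.0% of all genes were higher, and Star, Akr1c18 and Cyp17a1 were not called. With size factors, protein-coding rescaling and quantile normalization 3, 5 and 5 were higher and 1, Cyp17a1, lower. Over all genes 7.61, 6.64 and 9.55% were then higher, and 8.72, 7.54 and 8.61% lower. Cyp11a1, the side-chain cleavage enzyme that makes pregnenolone, averaged 1007 ± 123 TPM in KO against 416 ± 39.9 TPM in PRAKO WT libraries (SD, n = 3 each). The log2 fold change was 1.27 (limma adjusted p = 0.00023). As deposited, Cyp11a1 was not called in PRKO (0.30, limma adjusted p = 0.174) or PRBKO (0.45, limma adjusted p = 0.0984). With quantile normalization it was called higher in PRKO (0.35, limma adjusted p = 0.0392). Its electron donors Fdxr and Fdx1 were higher by 0.79 and 0.59 on the log2 scale, and Srd5a1, a 5-alpha-reductase that removes progesterone, by 0.68. Hsd3b1, which makes progesterone from pregnenolone and was named after its values were seen, was higher by 0.46 (limma adjusted p = 0.00502) and lost the call with size factors (0.25, limma adjusted p = 0.0651). Among the partners of PGRMC1, Scap, the escort protein of sterol regulation, was higher by 0.99. Por, the electron donor of microsomal P450 enzymes, was higher by 0.38, and Nenf, a MAPR relative, by 0.25. The G protein genes Gnas and Gnai2 were called higher by 0.20 and 0.17, and both turned negative with size factors and protein-coding rescaling, Gnas also with quantile normalization. With protein-coding rescaling Cyp11a1, Scap, Fdxr, Fdx1 and Srd5a1 kept the call and Por and Nenf lost it, and Fdx1 lost it with size factors. In PRBKO the genes called higher included Insig1 (0.59), Star (0.63) and Fdx1 (0.68); Insig1 and Fdx1 lost the call under all 3 other scalings.

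The patterns of the members over the 18 libraries were set against 11890 protein-coding genes, on log2 TPM rescaled to protein-coding genes, as a description. Nearest to Pgrmc1 were Cyp51 (Pearson r = 0.85), F2rl2 (0.85) and Oxr1 (0.83). Nearest to Pgrmc2 were Vegfa (0.93), Pkd2 (0.91) and Crlf2 (0.88). Paqr7 stood nearest to Mtfr1l (0.92), Mthfd1l (0.90) and Plod1 (0.90). Paqr8 stood nearest to Slc38a5 (0.95), Syt7 (0.93) and Heph (0.93), and Paqr6 to Sugp2 (0.94), Zer1 (0.93) and Agbl5 (0.90). Paqr9, a low gene, had no gene above 0.74 (Fbxl12 0.74, Jrkl 0.72, Zbtb17 0.71). Among the members themselves the closest pairs were Pgrmc2 with Paqr5 (0.78) and Paqr6 with Paqr8 (0.75). The libraries share strains and groups, and these r values include the differences between them. Within groups r was lower for 16 of the 18 pairs, for example 0.67 for Vegfa with Pgrmc2 and 0.70 for Slc38a5 with Paqr8. It was higher for F2rl2 with Pgrmc1 (0.89) and Jrkl with Paqr9 (0.87), and Cyp51 with Pgrmc1 stayed at 0.85.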

How the data were processed

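Per the labels and the study's methods, total RNA of granulosa cells was depleted of rRNA, sequenced and quantified with Salmon by the authors, who deposited TPM per RefSeq transcript in 1 table per strain (GRCm38.p6 in the submitters' processing notes). TPM keeps no depth, so no counting interval is given. Of 42251 transcripts, 42067 matched a RefSeq gene and were summed to 24959 genes. The count-based limma-voom of the study's methods cannot be run on TPM, so limma 3.58.1 (R 4.3.3, trended prior, tested on simulated data) was fitted to log2(TPM + 0.5) for genes of at least 1 TPM in 3 of the 6 libraries of a strain, with Benjamini-Hochberg adjustment over all genes. Fold changes are on that scale, which understates low genes. Strain differences came from 1 fit of 18 libraries. The members and gene lists were chosen with earlier results of these data known. Named genes are the members, Pgr, up to 4 called genes per list and strain, and the 3 genes most alike to each tested member. A gene that this rule names is not reported here, but it is in the counts. Alternatives were other pseudocounts (0.1 and 1), filters (none, or a mean TPM of 5 or more) and scalings (size factors, protein-coding TPM, quantiles), a constant prior, array weights, all libraries in 1 fit, a replicate block and leaving out each library. P-values measure the spread between pools of mice.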

Additional observations from a re-analysis of the deposited data

Results flagged for a closer look

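KO effects that differed between strains by limma's test of the difference (adjusted p at most 0.05, over all 18 libraries) are given here as values. For Pgrmc1 the PRKO minus PRAKO difference was -0.43 and the PRKO minus PRBKO difference -0.49, and for Paqr7 the PRKO minus PRAKO difference was -0.77; all 3 fell short of the test after each of the 3 other scalings. For Abhd2 the differences were -0.60 (PRKO minus PRAKO), -1.88 (PRKO minus PRBKO) and -1.28 (PRAKO minus PRBKO). For Egfr they were -0.83, -2.29 and -1.46 in the same order. For Adipor2 they were -1.04 (PRKO minus PRBKO) and -0.69 (PRAKO minus PRBKO). Over all genes the median was -0.30 for PRKO minus PRAKO, -0.31 for PRKO minus PRBKO and -0.003 for PRAKO minus PRBKO. The PRKO minus PRAKO difference of Abhd2 fell short of the test under all 3 scalings (-0.28 to -0.34), and that of Egfr with protein-coding rescaling (-0.52). With 3 libraries a group, single libraries were not screened as outliers.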

How the results depend on the processing

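No member passed the 2-fold rule under any alternative run, and the 3 differences in the Pgrmc1 share kept their sign without each library (-1.61 to -0.73 points in PRKO, 1.18 to 2.03 in PRAKO, 1.47 to 2.16 in PRBKO). Scaling moved the looser calls. With size factors, protein-coding rescaling and quantile normalization, PRAKO had 2271, 1971 and 2525 genes called (4796 as reported) with 0, 0 and 1 members (2 as reported), and PRBKO 202, 305 and 168 (487), with 3, 8 and 0 by the 2-fold rule (19). The share of looser calls that were higher was 39.4, 37.2 and 44.2% in PRKO (21.2% as reported), 46.6, 46.8 and 52.6% in PRAKO (86.9%) and 56.4, 24.6 and 53.6% in PRBKO (93.8%). In the same order, PRKO minus PRAKO differences gave 301, 260 and 344 genes (2057) and 0 members each (2), PRKO minus PRBKO 1833, 1656 and 1871 (4096) and 0 members each (1), and PRAKO minus PRBKO 1724, 1672 and 1737 (898). Among the members, and the related genes named for a call in that strain, fold changes that changed sign under these scalings were Pgrmc1 in PRKO (0.018, 0.0090 and 0.0076), Pgrmc2 in PRBKO (-0.021, -0.093 and -0.031), Gnas in PRAKO (-0.011, -0.013 and -0.016), the Paqr7 PRKO minus PRBKO difference (0.035, 0.10 and 0.038), and, with size factors and protein-coding rescaling, Pgrmc2 (-0.020 and -0.021) and Gnai2 (-0.037 and -0.038) in PRAKO; the Pgrmc1 PRAKO minus PRBKO difference did so with protein-coding rescaling and quantile normalization (0.046 and 0.085). Of the 32 related genes tested, 6, 6 and 5 had the other sign under all 3 scalings in PRKO, PRAKO and PRBKO, among them Abhd2 in PRBKO (-0.093, -0.17 and -0.18, against 0.15 as deposited). With no filter, PRAKO had 1 member called, PRBKO 4 genes by the 2-fold rule and 77 by the looser rule, and PRKO minus PRAKO 1223 genes. With a mean of at least 5 TPM, PRAKO had 184 genes by the 2-fold rule, and PRBKO 34 and, by the looser rule, 1045 with 1 member, Pgrmc1. With a constant prior, PRKO had 1 member, Paqr8, and PRBKO 197 genes by the looser rule. With array weights, which ran from 0.17 to 4.31 over libraries, the looser rule gave 3716, 8305 and 8621 genes with 3, 4 and 2 members in PRKO, PRAKO and PRBKO, 120 genes by the 2-fold rule in PRBKO, and 8801, 8921 and 2288 genes in the 3 differences, with 3 members in PRKO minus PRBKO; Pgrmc2 in PRKO was -0.0056 and Paqr7 and Paqr8 in PRBKO were 0.047 and 0.017. With all 18 libraries in 1 fit, PRAKO had 1 member, and PRBKO 1 member with 38 genes by the 2-fold rule and 4070 by the looser rule. Same-numbered libraries deviated together no more than others did (r = -0.15 to 0.15, against -0.28 to 0.22). Replicate numbers were therefore not treated as pairs, though r cannot show how the libraries were collected. With the replicate block, PRAKO had 464 and 1419 genes with 0 members, PRBKO 302 and 2174 with 1 member, Pgrmc1, and the differences 5, 1582 and 322 genes with 0 members each; Adipor2 in PRAKO lost its call (-0.40, limma adjusted p = 0.061). Without each library in turn, the looser rule gave 677 to 1662 genes and 0 to 1 members in PRKO, 1685 to 7198 and 1 to 3 in PRAKO, 107 to 7245 and 0 to 2 in PRBKO (4 to 63 by the 2-fold rule), 345 to 3493 and 0 to 2 in PRKO minus PRAKO, 2495 to 7081 and 1 to 2 in PRKO minus PRBKO. Signs changed without a library for Pgrmc2 in PRKO (-0.059 to 0.048), Pgr in PRKO (-0.15 to 0.19), Paqr8 in PRAKO (-0.16 to 0.036), and Paqr7 (-0.15 to 0.046) and Paqr8 (-0.25 to 0.045) in PRBKO. The cause of these changes was not tested. The 3 libraries a group limit all values, most of all those of Paqr5, Paqr6, Paqr8 and Paqr9 near 1 to 4 TPM.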
